A study of Mus musculus with 12 samples.

Results

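Mitochondrial fusion and fission genes were followed in 12 mouse hearts, as a set of 8 genes of 18193 that had at least 1 probe set of their own on the array. The fusion genes were Opa1, Mfn1 and Mfn2, the fission genes were Dnm1l, Fis1 and Mff, and Oma1 and Yme1l1 encode proteases that cut OPA1. The set was chosen by its measured values in these hearts, namely the log2 signal across the genotypes, so the genotype differences of its members are given below as a description without a test. All probe sets that the platform annotation assigned to 1 member alone were taken, which gave 23 of 45037. In that annotation no probe set named a member together with another gene. Whether the probes also read other genes was not tested. Of the 23, 19 reached the median of all probe sets in mean log2 signal (5.44, a signal of 43.5) and so were among the 22519 probe sets tested.

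The hearts came from 3 Tg R211A mice, 3 Tg S343D mice and 6 wild type (WT) littermates, all C57BL/6 and 8 to 9 weeks old. The transgenic mice (ILKR211A Tg and ILKS343D Tg in the labels) over-express integrin-linked kinase (ILK), an adaptor and kinase-like protein of cell-matrix contacts, in the heart only, with a point mutation in the pleckstrin homology domain (R211A) or one that makes the protein constitutively active (S343D). The WT hearts form a second and a first set of 3, and the labels do not say which line each set belongs to. The Tg R211A hearts and the second WT set carry the heart numbers 7 to 12, and the Tg S343D hearts and the first WT set carry 1 to 6. A WT heart of the first set was labelled male and the other hearts female, and the label of 1 WT heart names the left ventricle where the others name the heart. The labels name no surgery, whereas the study's methods speak of hearts with and without infarction for the R211A line, so the comparison is given here by genotype as labelled.

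Mitochondria in the heart muscle cell are continually joined and divided. Mitofusins, the products of Mfn1 and Mfn2, tether and fuse the outer membranes, and the dynamin-like OPA1 fuses the inner membranes and shapes the cristae. DRP1, the product of Dnm1l, is recruited from the cytosol by adaptors such as MFF and FIS1 and constricts the organelle. OMA1 and YME1L1 cut OPA1 into short forms, and much of the control of this machinery acts on the proteins, which arrays of mRNA do not measure.

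The labels were first checked with Ilk itself, read from a probe set for the mouse gene, while the transgenes are versions of the human gene per the study's methods. Its signal averaged 8799 ± 682 in Tg R211A hearts, 3515 ± 434 in Tg S343D hearts and 601 ± 39.0 in WT hearts (SD with n = 3, 3 and 6), without overlap between the genotypes. The 7 cardiomyocyte markers summed to 71690 to 78960 in Tg R211A hearts, 66230 to 73360 in Tg S343D hearts and 68830 to 82030 in WT hearts, and these ranges overlapped. The 4 smooth muscle markers summed to 2757 to 3105 in Tg R211A hearts, 2237 to 3085 in Tg S343D hearts and 1512 to 2676 in WT hearts, so that Tg R211A hearts lay above all WT hearts. Of the 4, Acta2, at a mean of 2288, made up most of the sum, and Cnn1, at a mean of 13.2, was under the filter. The 3 tested markers were above 0 in Tg R211A minus WT hearts, and 0 passed. Tagln had the smallest p of these 3, and its signals overlapped between Tg R211A and WT hearts. The 5 macrophage markers summed to 1908 to 2026 in Tg R211A hearts, below the 2035 to 2438 of Tg S343D hearts, and to 1732 to 2289 in WT hearts, which overlapped with both. The median signal per array was 41.5 to 46.5, 45.1 to 49.1 and 43.1 to 47.1 in the same order of genotypes, and the 66 pairs of arrays correlated with r of 0.933 to 0.945 over all probe sets. Within each genotype, hearts differed in their content of atrial RNA. The summed signal of Sln, Myl7, Myl4 and Nppa spanned 2608 to 20080 in Tg R211A hearts, 1835 to 20840 in Tg S343D hearts and 2541 to 15900 in WT hearts. Each array is 1 heart, and in such bulk RNA fewer cells of a type and less RNA per cell cannot be told apart.

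In the probe set with the highest mean of each gene, the 8 genes differed little between the genotypes. None of the 8 probe sets separated either transgenic line from the WT hearts. The median size of the log2 difference over these 8 was 0.04 between Tg R211A and WT hearts and 0.04 between Tg S343D and WT hearts, and the largest was 0.07 in Tg R211A hearts (Mff) and 0.22 in Tg S343D hearts (Yme1l1). For comparison, the 8 probe sets differed by a median of 0.03 and by at most 0.11 (Fis1) between the second and the first WT set, which share their genotype. The exceptions stood in dimmer probe sets, 1 of Opa1 in Tg S343D hearts and 1 of Yme1l1 in Tg R211A hearts, and both are set out with their genes.

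**Figure D1:**
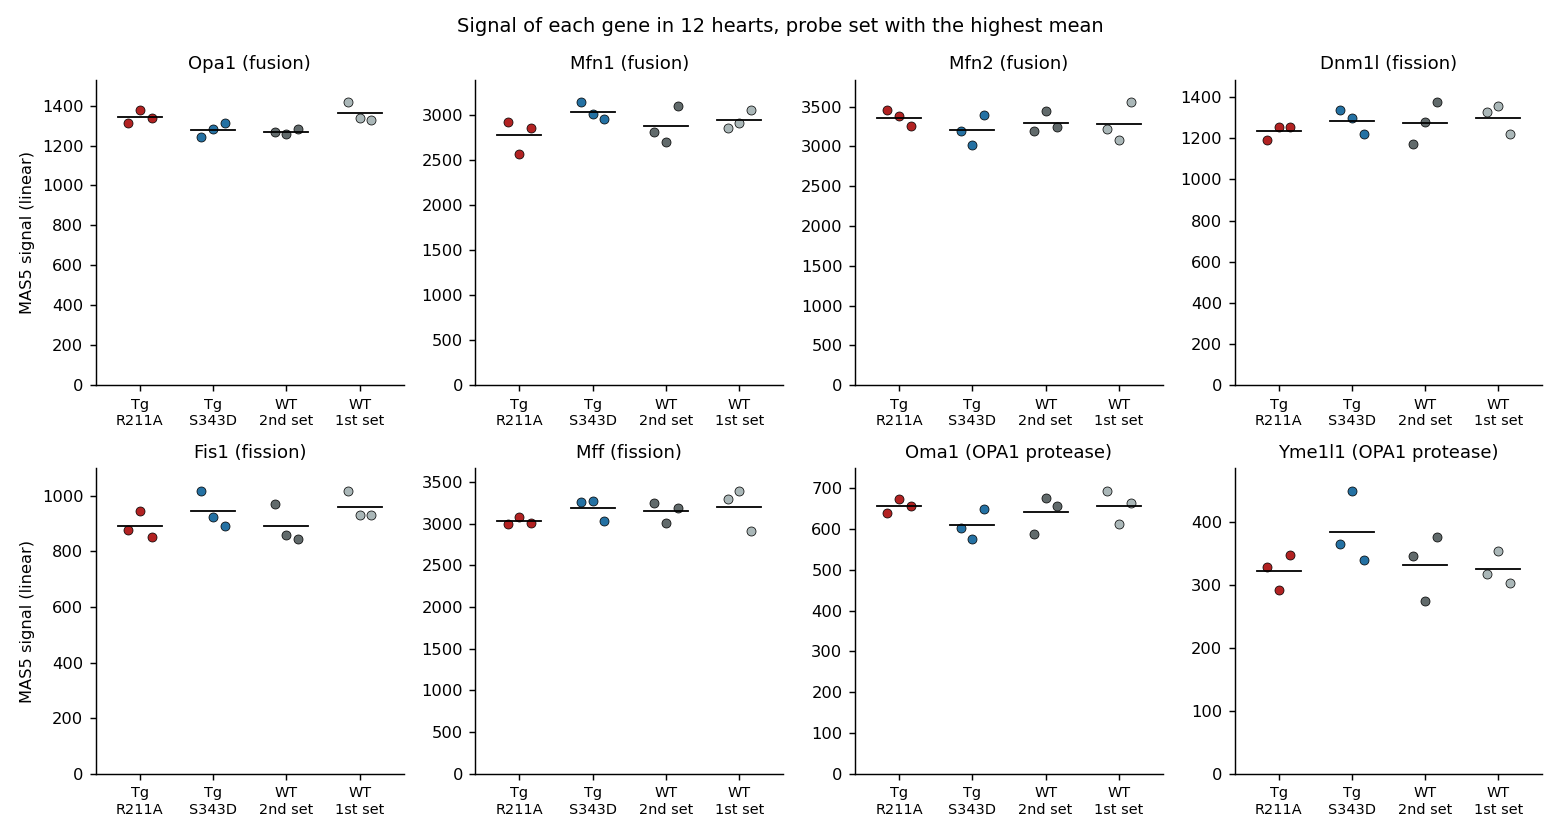
MAS5 signal on a linear axis from 0 for the brightest probe set of each of the 8 genes, with 1 point per heart, the groups side by side (Tg R211A, Tg S343D, WT second set, WT first set, n = 3 each) and a bar at each group's mean. In every panel the points of both transgenic lines overlap with those of the 6 WT hearts, and a Tg S343D heart with 449 for Yme1l1 stands farthest from the WT hearts (up to 375).

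Opa1, the inner membrane fusion gene, was read by 3 probe sets, and they differed from one another across the hearts. The brightest, 1434890_at, gave 1311, 1380 and 1337 in Tg R211A hearts, 1240, 1284 and 1312 in Tg S343D hearts, and a range of 1260 to 1416 with a median of 1304 in WT hearts. The groups overlapped, with log2 differences of 0.03 ± 0.05 for Tg R211A minus WT and -0.04 ± 0.05 for Tg S343D minus WT (SE from the fit). The probe set 1449214_a_at, whose suffix marks probes common to transcripts of 1 gene, gave 415, 413 and 391 in Tg R211A hearts, 309, 309 and 329 in Tg S343D hearts, and 356 to 441 with a median of 404 in WT hearts. All 3 Tg S343D hearts lay below all 6 WT hearts and all 3 Tg R211A hearts, while Tg R211A and WT hearts overlapped. Its log2 difference was -0.32 ± 0.08 (SE) for Tg S343D minus WT, with a 95% interval of -0.49 to -0.16, and 0.36 ± 0.09 (SE) for Tg R211A minus Tg S343D. It stayed at -0.34 against the first WT set alone and at -0.30 against the second WT set alone. Tg S343D and WT hearts overlapped in the other Opa1 probe sets, so this separation was found in 1 of the 3. Over the 12 hearts 1449214_a_at correlated with the brightest Opa1 probe set with r = 0.34 and with the remaining one, 1418768_at, with r = 0.50. Which transcripts the probe sets read was not tested, since probe sequences were not used here.

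The Opa1 probe set 1418768_at, singled out after its values were seen, separated the hearts by their range of heart numbers. It gave 516, 508 and 562 in Tg R211A hearts, 385, 392 and 469 in Tg S343D hearts, 544, 507 and 524 in the second WT set and 372, 356 and 467 in the first WT set. Every heart numbered 7 to 12 therefore lay above every heart numbered 1 to 6, whether transgenic or WT. Among the 19 tested member probe sets this was the only one, and the same separation was found in 0.657% of all 22519. The difference between the second and the first WT set, which the choice of genes had not used, was 0.41 ± 0.11 on the log2 scale (SE, 95% interval 0.18 to 0.64, 3 of 3 hearts of the second set higher) and did not pass in limma after adjustment over all probe sets (adjusted p = 0.371). With this split, the log2 difference between Tg R211A and WT hearts was 0.21 ± 0.13 (SE) over all 6 WT hearts, 0.42 against the first WT set alone and 0.01 against the second WT set alone. For Tg S343D minus WT it was -0.14 ± 0.13 (SE), -0.34 against the second WT set and 0.07 against the first. Between the transgenic lines it was 0.35 ± 0.15 (SE), and -0.06 ± 0.15 (SE) with the range of heart numbers as a block. The other Opa1 probe sets did not show this split. In the brightest, 1434890_at, the second WT set lay below the first, at 1260 to 1281 against 1328 to 1416. The log2 difference there was -0.10 ± 0.06 (SE). In 1449214_a_at the WT sets overlapped, with a log2 difference of -0.03 ± 0.09 (SE). No source used here says what the heart numbers stand for.

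The 300 bases around the Opa1 start site are printed because they hold a feature that the choice of genes did not use. The window is from RefSeq (GRCm38.p6, chr16:29579084-29579383, plus strand, 250 bases before to 50 after the start), and capitals mark the palindrome GCGCATGCGC, the core letters bound by nuclear respiratory factor 1 (NRF1), a regulator of nuclear genes for mitochondrial proteins.
Opa1 promoter: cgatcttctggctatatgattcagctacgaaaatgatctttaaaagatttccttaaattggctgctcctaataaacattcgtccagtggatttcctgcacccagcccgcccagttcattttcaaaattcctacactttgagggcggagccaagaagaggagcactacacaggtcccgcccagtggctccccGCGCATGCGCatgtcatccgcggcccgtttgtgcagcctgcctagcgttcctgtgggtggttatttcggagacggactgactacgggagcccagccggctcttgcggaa
These letters, searched on both strands, were found in 1 of the 13 windows of the 8 genes and in 0.971% of 32851 RefSeq windows of this length. A match describes the letters and not a bound site. Nrf1 mRNA itself averaged 89.5 ± 3.99 in Tg R211A hearts, 95.5 ± 12.6 in Tg S343D hearts and 110 ± 11.2 in WT hearts (SD with n = 3, 3 and 6). All 3 Tg R211A hearts (85.2 to 93.0) lay below all 6 WT hearts (94.9 to 125), without passing in limma (adjusted p = 0.62), and the Tg S343D hearts overlapped with WT. These groups did not overlap in 4.07% of all tested probe sets. Nrf1 was added after its values were seen, and a link between Nrf1 and Opa1 was not tested.

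Mfn1 and Mfn2, the outer membrane fusion genes, showed no separation from WT in either line. Mfn2 (1448131_at) gave 3452, 3386 and 3253 in Tg R211A hearts, 3192, 3017 and 3401 in Tg S343D hearts and 3086 to 3555 with a median of 3229 in WT hearts. Its log2 differences were 0.03 ± 0.06 (SE, 95% interval -0.09 to 0.16) for Tg R211A minus WT and -0.04 ± 0.06 (SE, 95% interval -0.16 to 0.09) for Tg S343D minus WT. Mfn1 (1449697_s_at) gave 2923, 2572 and 2858 in Tg R211A hearts, 3144, 3016 and 2964 in Tg S343D hearts and 2706 to 3106 with a median of 2886 in WT hearts. The WT hearts overlapped with both lines, whereas the Tg R211A hearts lay below all Tg S343D hearts, by 0.13 ± 0.07 on the log2 scale (SE). The probe set 1426773_at gave 1554, 1837 and 1629 in Tg R211A hearts, 1699, 1651 and 1733 in Tg S343D hearts and 1696 to 1941 in WT hearts, all overlapping. The dim probe set 1419997_at, at 61.4 to 74.7 in Tg R211A hearts, 84.9 to 102 in Tg S343D hearts and 67.0 to 110 in WT hearts, again had all Tg R211A hearts below all Tg S343D hearts, and its interval for Tg R211A minus WT ran from -0.65 to 0.01.

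The fission genes were likewise level in their brightest probe sets. Dnm1l, which encodes the DRP1 GTPase, gave 1190, 1255 and 1256 in Tg R211A hearts, 1337, 1297 and 1220 in Tg S343D hearts and 1175 to 1375 with a median of 1303 in WT hearts (1428086_at). Its log2 differences were -0.06 ± 0.06 for Tg R211A minus WT and -0.00 ± 0.06 for Tg S343D minus WT (SE). The second probe set, 1428087_at, gave 888 to 996 in Tg R211A hearts, 772 to 925 in Tg S343D hearts and 824 to 1056 in WT hearts, which overlapped. The dimmest tested probe set, 1452638_s_at, gave 156, 175 and 188 in Tg R211A hearts, 119, 117 and 149 in Tg S343D hearts and 120 to 162 with a median of 138 in WT hearts. Tg R211A hearts lay above all Tg S343D hearts there and overlapped with WT, with log2 differences of 0.30 ± 0.13 (SE) for Tg R211A minus WT and 0.44 ± 0.15 (SE) for Tg R211A minus Tg S343D. It correlated with the brightest Dnm1l probe set with r = -0.19 over the 12 hearts, so these Dnm1l probe sets did not move together.

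Fis1, an outer membrane adaptor, gave 878, 943 and 852 in Tg R211A hearts, 1016, 925 and 892 in Tg S343D hearts and 844 to 1017 with a median of 930 in WT hearts (1416764_at), and all groups overlapped. Its other probe set, 1443819_x_at, which may cross-hybridize by its suffix, stood at 252 to 287, 254 to 283 and 244 to 279 in Tg R211A, Tg S343D and WT hearts. Mff, the main adaptor that recruits DRP1, gave 2994, 3082 and 3008 in Tg R211A hearts, 3259, 3268 and 3026 in Tg S343D hearts and 2915 to 3389 with a median of 3217 in WT hearts (1456736_x_at), which again overlapped. It and a further Mff probe set, 1456582_x_at, carry the same suffix as 1443819_x_at. The Mff probe set 1451572_a_at, without that suffix, gave 716, 679 and 773 in Tg R211A hearts, 668, 687 and 664 in Tg S343D hearts and 649 to 715 in WT hearts. Its log2 difference for Tg R211A minus WT was 0.10 ± 0.06 (SE), beside -0.07 ± 0.06 (SE) for 1456736_x_at, and the 2 correlated with r = -0.27 over the 12 hearts. The third, 1456582_x_at, was the most variable of the 19, and its highest heart was 3.58 times its lowest. It gave 97.0, 88.1 and 83.5 in Tg R211A hearts, 150, 232 and 98.3 in Tg S343D hearts and 74.1 to 265 with a median of 123 in WT hearts. The WT hearts alone spanned the range of both lines.

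Of the OPA1 proteases, Oma1, which acts under stress of the inner membrane, was level, and Yme1l1 differed by probe set. Oma1 (1424299_at) gave 639, 675 and 656 in Tg R211A hearts, 603, 577 and 649 in Tg S343D hearts and 589 to 694 with a median of 661 in WT hearts. Its log2 differences were 0.02 ± 0.07 for Tg R211A minus WT and -0.09 ± 0.07 for Tg S343D minus WT (SE). Yme1l1, the i-AAA protease, gave 195, 187 and 219 in Tg R211A hearts, 241, 243 and 219 in Tg S343D hearts and 231 to 263 with a median of 252 in WT hearts in the probe set 1423361_at. All 3 Tg R211A hearts lay below all 6 WT hearts, and Tg S343D hearts overlapped with WT. The log2 difference was -0.33 ± 0.08 (SE, 95% interval -0.50 to -0.15) for Tg R211A minus WT, -0.29 against the first WT set alone and -0.36 against the second. The brightest Yme1l1 probe set, 1450954_at, gave 329, 292 and 347 in Tg R211A hearts, 364, 449 and 340 in Tg S343D hearts and 275 to 375 with a median of 331 in WT hearts, with a log2 difference of -0.02 ± 0.11 (SE) for Tg R211A minus WT. The dim 1423360_at gave 72.1 to 77.9, 82.8 to 95.1 and 70.3 to 96.5 in Tg R211A, Tg S343D and WT hearts. The lower signal in Tg R211A hearts was thus found in 1 of the 3 Yme1l1 probe sets, and the part of the smooth muscle markers, whose sum was higher in the same hearts, was not tested.

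The Yme1l1 promoter is printed as the member with the most matches to the other motif searched, CCGGAAG, a core bound by the ETS factor GABP (also called nuclear respiratory factor 2). The window is from RefSeq (GRCm38.p6, chr2:23156255-23156554, plus strand), and capitals mark its 3 matches, the last of them on the other strand.
Yme1l1 promoter: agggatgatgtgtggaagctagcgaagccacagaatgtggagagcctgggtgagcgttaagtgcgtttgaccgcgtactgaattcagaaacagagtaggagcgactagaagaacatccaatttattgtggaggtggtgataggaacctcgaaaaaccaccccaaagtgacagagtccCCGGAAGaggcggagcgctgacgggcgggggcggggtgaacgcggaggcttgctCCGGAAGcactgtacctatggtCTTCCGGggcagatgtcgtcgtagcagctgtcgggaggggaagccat
The motif does not overlap with the NRF1 letters. It was found in 5 of the 13 windows, from 4 of the 8 genes (Dnm1l, Fis1, Mfn1 and Yme1l1), and in 8.86% of the 32851 windows. Neither motif was found in the windows of Mfn2, Mff and Oma1. Both motifs contain the bases CG, and the 32851 windows were not matched to the 13 for such pairs. The 13 windows held 8 to 33 CG pairs, beside a median of 7 over all windows, and some genes have several windows. No enrichment is therefore read from either share.

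**Figure D2:**
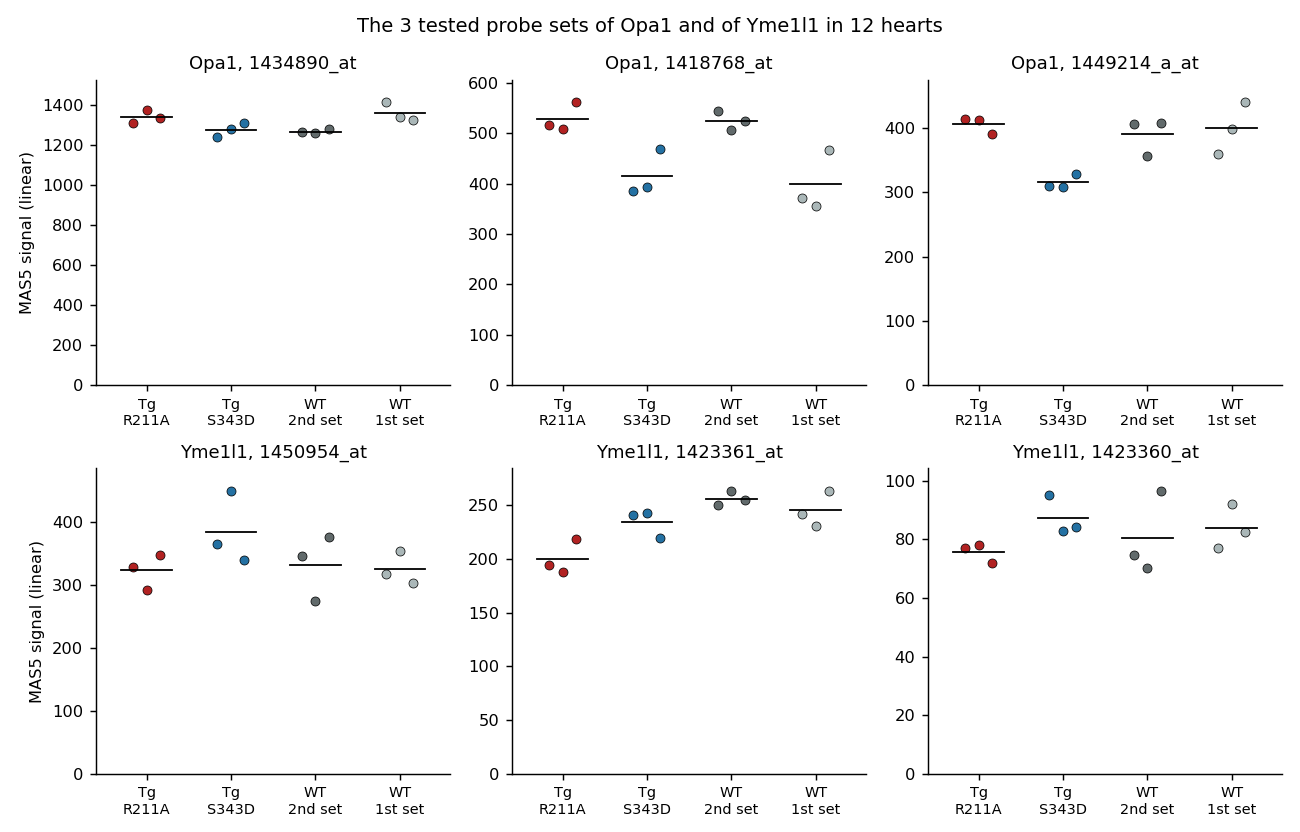
MAS5 signal on a linear axis from 0 for the 3 tested probe sets of Opa1 (top) and of Yme1l1 (bottom), 1 point per heart, a bar at each group's mean, n = 3 in each of the 4 groups. Opa1 1418768_at is high in Tg R211A hearts and the second WT set (507 to 562) and lower in Tg S343D hearts and the first WT set (356 to 469), Opa1 1449214_a_at is lowest in Tg S343D hearts, and Yme1l1 1423361_at is lowest in Tg R211A hearts.

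The 4 member probe sets below the filter were Dnm1l 1428008_at, Mff 1457371_at, Mfn2 1451900_at and Yme1l1 1437822_at. Their signals ran from 0.639 to 40.1, under the filter of 43.5, and both transgenic lines overlapped with the WT hearts in each. No difference is read from them.

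Counted over the 19 tested probe sets, no member passed an adjusted p of 0.05 in limma in any comparison, and the counts are given beside those of the whole array because the genotype contrasts were used to choose the genes. Between Tg R211A and WT hearts 0.204% of all probe sets passed, and 0 of the 19 did. At an unadjusted p under 0.05 there were 2 of 19 (Dnm1l 1452638_s_at higher, Yme1l1 1423361_at lower), against 7.51% of all, and 1 of 19 had groups without overlap, against 4.07% of all. Between Tg S343D and WT hearts 0.00444% of all passed, 0 of the 19 did, 1 of 19 had an unadjusted p under 0.05 (Opa1 1449214_a_at, lower) against 3.98% of all, and the same probe set was the 1 of 19 without overlap, against 2.03% of all. Between Tg R211A and Tg S343D hearts 0.16% of all passed and 0 of the 19 did. There 5 of 19 had an unadjusted p under 0.05, 3 higher and 2 lower in Tg R211A hearts, against 8.45% of all, and 8 of 19 did not overlap, 3 higher and 5 lower, against 15.0% of all. Nothing is read from these 3 comparisons. Between the second and the first WT set 0.00888% of all passed and 0 of the 19 did. The unadjusted p was under 0.05 in 1 of 19 (Opa1 1418768_at) against 7.99% of all, and 3 of 19 did not overlap against 12.6% of all, a share near that of the array.

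The median log2 difference of the 19 was -0.02 in Tg R211A hearts and -0.00 in Tg S343D hearts against WT, beside 0.00 for all tested probe sets in both. Of the 19, 9 were above 0 in Tg R211A hearts and 8 in Tg S343D hearts. Both comparisons share the same 6 WT hearts.

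**Figure D3:**
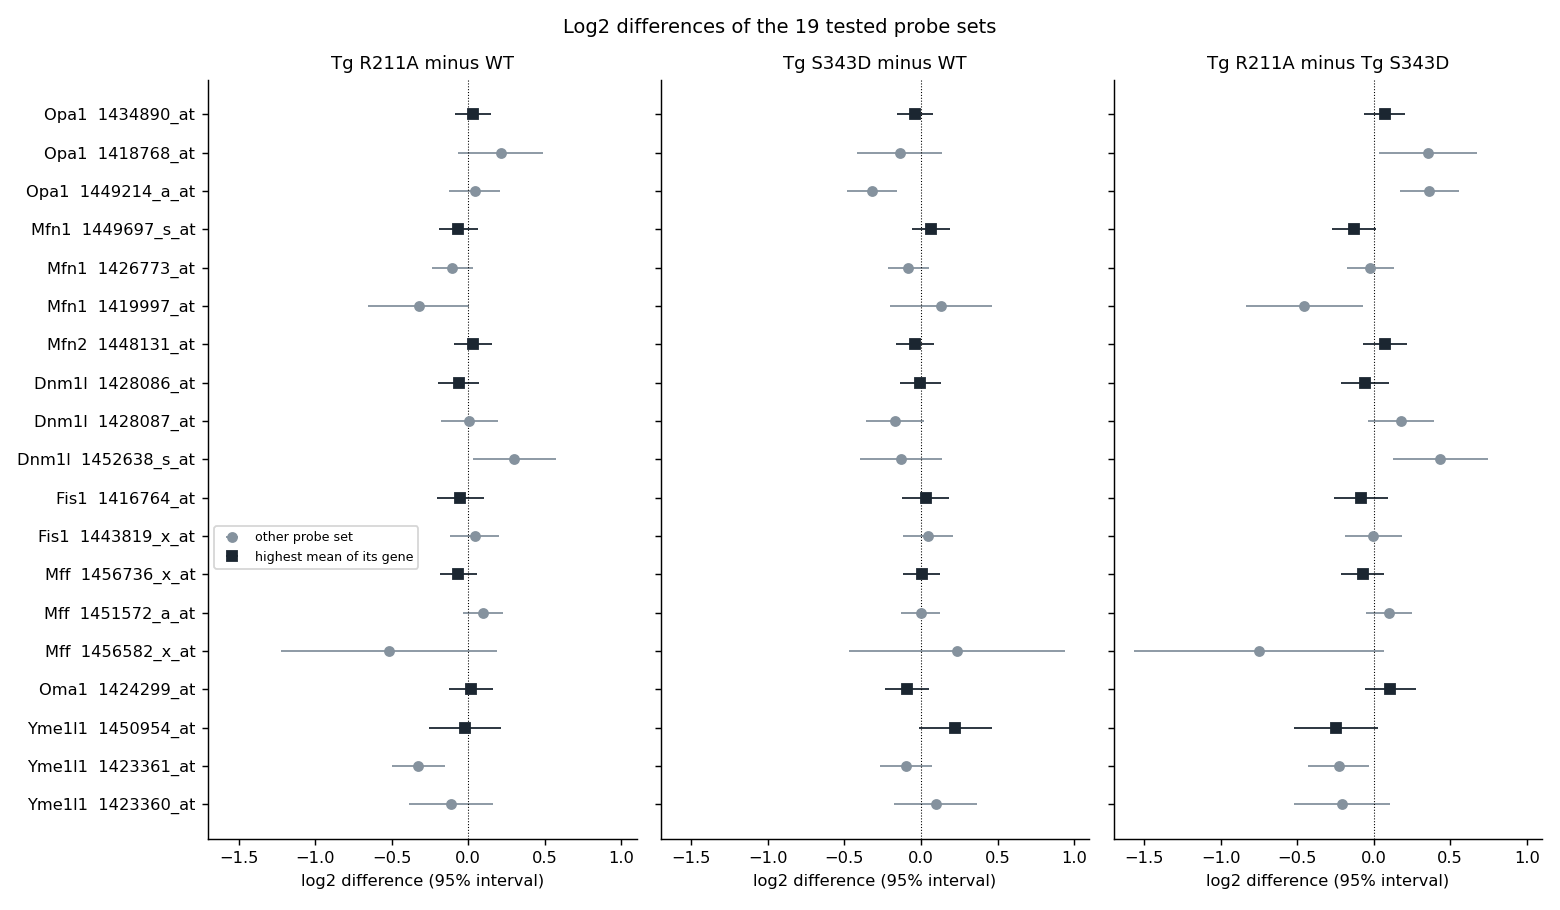
Log2 difference of the 19 tested member probe sets (points) with the 95% interval from the limma fit (bars), for Tg R211A minus WT, Tg S343D minus WT and Tg R211A minus Tg S343D, with dark squares for the brightest probe set of each gene. The 8 dark squares lie between -0.25 and 0.22 in all 3 panels, while the dimmer probe sets of Opa1, Mfn1, Dnm1l, Mff and Yme1l1 spread wider.

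The fusion genes and the fission genes were also averaged within each heart, as the mean log2 deviation from the WT mean over the brightest probe sets. The fusion genes deviated by -0.02 to 0.03 in Tg R211A hearts, by -0.03 to 0.03 in Tg S343D hearts and by -0.05 to 0.07 in WT hearts. The fission genes deviated by -0.09 to -0.01 in Tg R211A hearts, by -0.06 to 0.08 in Tg S343D hearts and by -0.06 to 0.08 in WT hearts. The difference of fusion minus fission was 0.11, -0.01 and 0.07 in Tg R211A hearts and -0.08, -0.05 and 0.09 in Tg S343D hearts, and the WT hearts covered -0.08 to 0.13 with a median of -0.01. To 2 decimals, the balance of the mRNAs in each transgenic heart lay within the spread of the WT hearts.

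**Figure D4:**
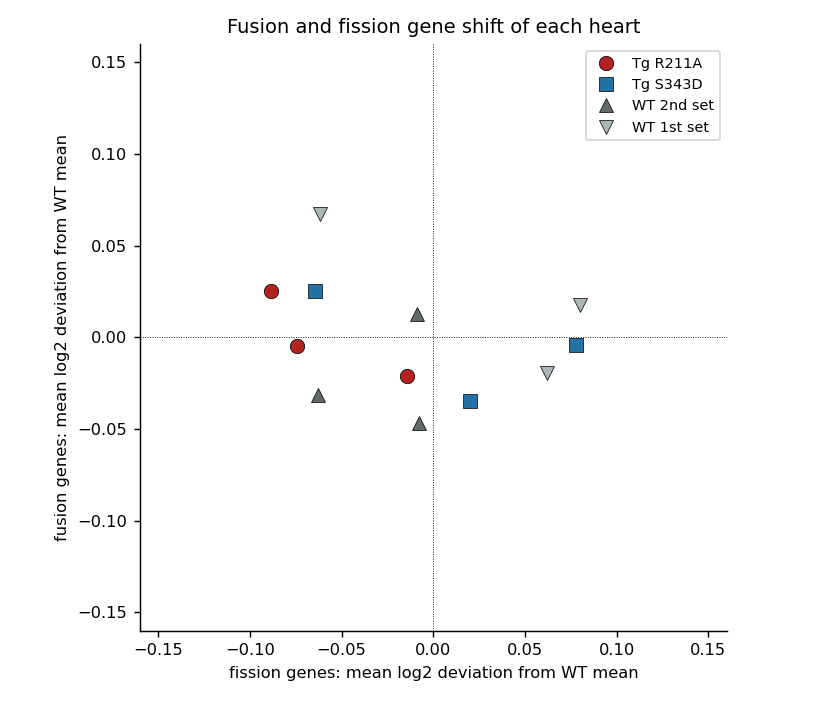
Mean log2 deviation from the WT mean of the 3 fusion genes (vertical) against that of the 3 fission genes (horizontal), 1 point per heart, by group. The Tg R211A hearts had fission genes at -0.09, -0.01 and -0.07, of which the lowest lie just below the WT hearts (-0.06 to 0.08), and both lines lie within the WT range for the fusion genes (-0.05 to 0.07).

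Probe sets of the same gene agreed little across the 12 hearts. Over 16 pairs in 6 genes r ran from -0.46 to 0.72 with a median of 0.14, and 10 pairs were above 0. The highest value was between Mff 1456736_x_at and 1456582_x_at, and the lowest between Mff 1451572_a_at and 1456582_x_at. The gene with the probe set most like the brightest one of each member was sought among all 19477 tested probe sets of other named genes, where a gene may have several. By Pearson's r these were Sf3b5 for Opa1 (r = 0.91), Zfp275 for Mfn1 (0.94), Sdha for Mfn2 (0.90), Khdrbs1 for Dnm1l (0.89), Lias for Fis1 (0.94), Hnrnpd for Mff (0.96), Ehbp1l1 for Oma1 (0.95) and Tspyl1 for Yme1l1 (0.96). These are the highest of many r values over 12 hearts and serve as a description. Sdha is a subunit of succinate dehydrogenase, and Lias makes lipoic acid in mitochondria.

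The atrial content was set beside the members. The 12 atrial sums fell into a lower set of 6 hearts (1835 to 4082) and an upper set of 6 hearts (9016 to 20843), each with hearts of all 3 genotypes, so no correlation over all hearts is given. Within the upper 6 hearts r of log2 signal with the log2 sum ran from -0.85 to 0.75 over the 19 probe sets, and within the lower 6 from -0.57 to 0.81. In the exact two-sided permutation test the lowest adjusted p over these 38 relations was 0.752 for Pearson's r and 0.781 for Spearman's rho (Benjamini-Hochberg). With 6 hearts the smallest p is 0.00278, which for a single relation gives 0.106 after adjustment, so no single relation could pass and the test says nothing on whether the members followed the atrial content. With the log2 sum as a covariate, the Opa1 1449214_a_at difference in Tg S343D hearts was -0.32 and the Yme1l1 1423361_at difference in Tg R211A hearts was -0.33, as without it.

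Around the 8 genes, 100 partner genes were taken in 8 lists, of which 94 had a probe set of their own and 88 were tested. In Tg R211A hearts 0 of 88 rose and 1 fell against WT, with 5 at an unadjusted p under 0.05 beside 7.51% of all probe sets. In Tg S343D hearts 0 rose and 0 fell, with 3 at an unadjusted p under 0.05 beside 3.98% of all. Between Tg R211A and Tg S343D hearts 0 passed in either direction, with 7 at an unadjusted p under 0.05 beside 8.45% of all. The median log2 difference of the 88 was -0.01 in Tg R211A hearts, -0.05 in Tg S343D hearts and 0.03 between the lines, beside 0.00, 0.00 and -0.00 for all tested probe sets.

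The gene that fell was Tfb2m, a factor of mitochondrial transcription. Its signal was 614, 776 and 672 in Tg R211A hearts, 912, 930 and 903 in Tg S343D hearts and 948 to 1161 with a median of 999 in WT hearts. All hearts of both lines lay below all WT hearts, and all Tg R211A hearts below all Tg S343D hearts. It fell by 0.59 ± 0.08 on the log2 scale (SE, 95% interval -0.76 to -0.41) in Tg R211A hearts. Its adjusted p was 0.00329 in limma over all probe sets, in a fit with both WT sets and no pairing of hearts. It was called in 24 of 27 alternatives (adjusted p of 0.00135 to 0.0789 in limma). Many of these left out a heart or changed only the filter or prior, so the count says little on stability. Against the second WT set alone the difference was -0.52 ± 0.08 (SE) and did not pass (adjusted p = 0.0594 in limma). With the heart-number range as a block it was -0.52 ± 0.09 (SE) and passed (adjusted p = 0.038 in limma). With pairs of a transgenic and a WT heart of the same number as a replicate block, the difference was -0.52 ± 0.09 (SE) and no longer passed (adjusted p = 0.0732 in limma). The smooth muscle marker sums also separated Tg R211A from WT hearts, and their part in this difference was not tested. In Tg S343D hearts the difference was -0.17 ± 0.08 (SE, adjusted p = 0.995), and between Tg R211A and Tg S343D hearts it was -0.42 ± 0.09 (SE, adjusted p = 0.124).

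No other gene of the mitochondrial biogenesis list passed. Of its 12 genes, 3 were above 0 in Tg R211A hearts and 2 in Tg S343D hearts, beside 37 and 24 of all 88 partner genes. Ppargc1a, a coactivator of mitochondrial gene programmes in that list, averaged 797 ± 26.1 in Tg R211A hearts, 906 ± 44.1 in Tg S343D hearts and 922 ± 81.7 in WT hearts (SD with n = 3, 3 and 6). Its log2 difference for Tg R211A minus WT was -0.21 ± 0.07 (SE, adjusted p = 0.511 in limma). Tfb2m, Nrf1 and Ppargc1a had the 3 lowest log2 differences of the list in Tg R211A hearts, so their values do not stand for the list. The list's median was -0.08. In the list of OPA1 processing and inner membrane proteolysis 0 of 12 passed in any comparison, and the smallest p in Tg R211A hearts was that of Phb2, a prohibitin of the inner membrane, at -0.22 on the log2 scale. In the list of cristae junction (MICOS) genes 0 of 12 passed, and Chchd3, a MICOS subunit, differed by 0.14 between Tg R211A and WT hearts and by 0.20 between Tg R211A and Tg S343D hearts (adjusted p = 0.645 and 0.461 in limma). Among 10 tested genes that modify DRP1, Senp5, a SUMO protease, had the smallest p in Tg S343D hearts with a log2 difference of -0.31 against WT (adjusted p = 0.995). Among the 17 other dynamics genes, Tbc1d15, a GTPase-activating protein that binds FIS1, differed by -0.40 between Tg R211A and Tg S343D hearts (adjusted p = 0.485). Of 7 mitophagy genes, 6 transport genes and 12 genes of mitochondrial content, 0 passed, with Vdac1, the outer membrane channel, at -0.26 in Tg S343D minus WT hearts (adjusted p = 0.995). Of 37 marker genes for cell types of the heart, 30 were tested and 0 passed in the 3 genotype comparisons, with 0, 2 and 0 at an unadjusted p under 0.05.

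**Figure D5:**
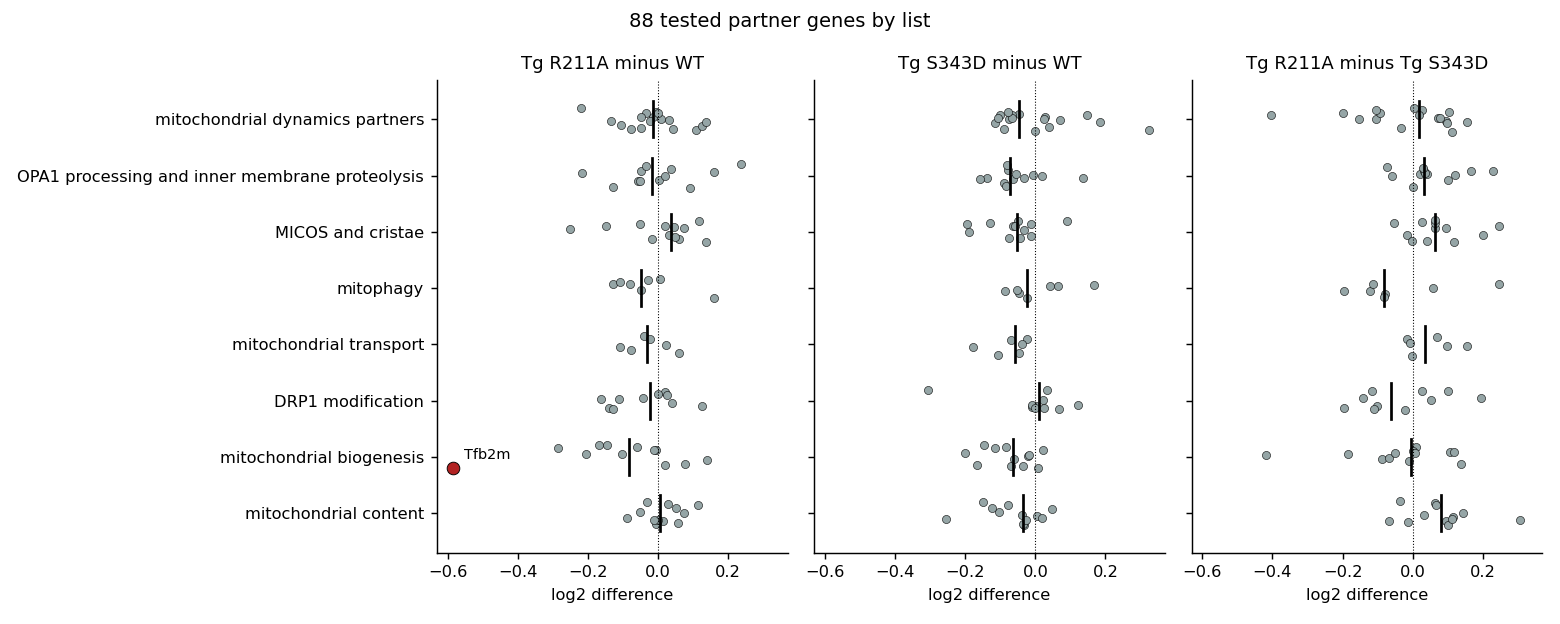
Log2 difference of each of the 88 tested partner genes (points, with scatter in the vertical direction only for legibility) by list, for Tg R211A minus WT, Tg S343D minus WT and Tg R211A minus Tg S343D, with a bar at each list's median and a larger red point for a gene with an adjusted p under 0.05. Tfb2m at -0.59 in Tg R211A hearts is the 1 red point, and the list medians lie between -0.08 and 0.08.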

How the data were processed

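RNA of 12 mouse hearts was hybridised to Affymetrix mouse genome arrays. Linear MAS5 intensities were deposited, 1 per probe set and array (made in GCOS, per the study's methods), and on each array their mean without the lowest and highest 2% was 150.0. The scanner's probe-level values are not analysed here. After dropping 64 array controls, log2 was taken with nothing added, and the 22519 of 45037 probe sets with a mean at or above the median were tested. Genes were named from the platform annotation, in which 34945 probe sets have 1 gene, 932 have several and 9160 have none. A partner or marker gene was read from its brightest probe set.

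Differences were fitted with limma 3.58.1 in R 4.3.3 (linear models, empirical Bayes with a trend, 3 genotypes and 12 arrays, or 4 groups for the second against the first WT set), two-sided, with Benjamini-Hochberg adjustment over all tested probe sets and a threshold of 0.05, after the procedure had been tested on simulated data. Each array is 1 mouse, so p-values measure the spread between these mice, and the number of arrays limits the precision. The members and gene lists were chosen with earlier results of these data known. Named genes are the members, per list and comparison the partner genes that passed or else the smallest p where printed, the gene most like each member, and Ilk. Nrf1 and Ppargc1a were added after their values were seen. Alternatives covered scaling, offset (16), filter, prior, array weights, WT set, heart-number range, replicate number, each heart left out and the other probe sets of a gene. The atrial covariate and the replicate block within each heart-number range were added after seeing the data. Same-numbered hearts of a line and the WT set in its range of heart numbers deviated together (r of 0.07 to 0.21 in 6 pairs, over 0.1 in 5, and in each of the 3 between Tg R211A hearts and the second WT set), whereas the other 12 pairs had r of -0.20 to -0.01. Promoter windows are from RefSeq (GRCm38.p6).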

Additional observations from a re-analysis of the deposited data

How the results depend on the processing

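The count of member probe sets called was 0 in all 4 comparisons under every alternative run in limma, with 1 to 4 of the tested ones at an unadjusted p under 0.05 for Tg R211A against WT, 1 to 3 for Tg S343D against WT, 2 to 7 for Tg R211A against Tg S343D and 1 to 2 for the second against the first WT set. With the replicate number as a replicate block these counts stayed at 0. With the replicate number as a replicate block within each heart-number range, the counts of member probe sets also stayed at 0, and that of partner genes for Tg R211A against WT was 0 (Tfb2m at -0.52 on the log2 scale). The count of partner genes called for Tg R211A against WT was also 0 with each array centred on its median and against the second WT set alone (Tfb2m at -0.55 and -0.52 on the log2 scale), and 1 elsewhere. For Tg R211A against Tg S343D it was 1 with array weights (Tfb2m) and 0 elsewhere, and for Tg S343D against WT it was 0 throughout. Leaving out 1 heart kept these counts at 1, 0 and 0.

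Of 993 member log2 differences recomputed for the 8 brightest and 4 further probe sets, 955 stayed within 1 SD of the WT hearts. A changed filter or prior leaves a log2 difference as it was, so such values could not move and their share says little on stability. Of the 38 that moved further, 31 were among the 45 that were read from another probe set of the gene. A further 3 came from the heart-number range as a block, 3 from the block within each range, 1 from centring arrays and 0 from leaving out a heart or from the atrial covariate. The cause was not tested. With 3 hearts in a transgenic line the precision is limited by the number of arrays, and dim probe sets such as Mff 1456582_x_at have the widest intervals.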
